A study of Drosophila melanogaster with 212 samples.

Results

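The genes fruitless (fru), doublesex (dsx), transformer (tra), transformer 2 (tra2) and intersex (ix) act in the sex differentiation pathway of Drosophila melanogaster. They were chosen by gene symbol, and all 5 were among the 17104 genes of a read count table of single cells. In females the RNA-binding protein Sex-lethal directs splicing of tra so that active Tra protein is made, and Tra together with Tra2 then directs female splicing of dsx and of the fru transcripts from its P1 promoter. In males, which lack active Tra, these transcripts are spliced by default into forms that encode male-specific Doublesex and FruM, transcription factors that shape courtship and aggression circuits. Intersex works with the female form of Doublesex, and some octopaminergic neurons of the male brain are known to contain FruM.

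The cells were single brain neurons sorted for a membrane-bound GFP reporter and labelled as octopaminergic/tyraminergic, from nervy-mutant males, wild-type males, nervy-mutant females and wild-type females. Flies of every group lived in vials of 15 until day 6. The labels name neither the nervy allele nor the driver of the reporter, and they name no animal, so each group was 1 sample whatever its number of cells. Hence no test between groups was possible, and the intervals below, exact at 95%, cover counting error only.

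After filtering, 49 mutant male, 42 wild-type male, 50 mutant female and 48 wild-type female cells remained, 189 in all. Median total counts per cell were 929114, 1144580, 648291 and 844888 in that order, and single cells ranged from 20875 to 3045780. The vesicular monoamine transporter gene Vmat reached 100 CPM (counts scaled to library size) in all but 6 cells and Tdc2, which encodes the enzyme that makes tyramine, in all but 14. Tbh, for the enzyme that turns tyramine into octopamine, was below it in 28. All 7 glial markers were also read: at least 2 of them reached 100 CPM in 18 mutant male, 16 wild-type male, 9 mutant female and 9 wild-type female cells. The mRNA of repo, a transcription factor of glia, was read in 10, 15, 7 and 10 cells of these groups. Of 19 pairs of nearly identical columns, 10 lay within 1 group and were averaged, 8 joined mutant with wild-type males and 1 joined mutant with wild-type females. How these pairs arose is not known, and those groups may share material. Male and female cells also carried different running numbers, which fall into 3 stretches of 96: all mutant female cells and 39 of the wild-type female cells lay in the last stretch and all male cells in the other two, so sex and running number can hardly be told apart. RNA of roX1, a male-specific noncoding RNA, was read in every male cell, and 3 female cells had at least 100 CPM of it. The nvy gene itself had 7.25 CPM in mutant males, against 16.7 in wild-type males, and 9.73 CPM in mutant females, against 13.3 in wild-type females. These sums rested on few cells, since 2 or 3 cells of each group held most of its nvy counts. Reads of nvy were found in 42.9% of mutant and 52.4% of wild-type male cells. In females the share was higher in mutants, at 32% against 20.8%.

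The authors counted each gene over the exons of 1 transcript, and for fru, dsx and tra that transcript was a particular splice form. By gene span and exon length it could be matched to the dm6 annotation for all 5 genes, which lie on the minus strand. The gene fru (FBgn0004652, 3R from 18414273 to 18545586) was counted over the 8 exons of fru-RF, 6960 bases that make up 37.8% of the exonic bases of its 15 annotated transcripts. Exon 2 was the long form of 1893 bases, which belongs to female splicing, while the short form found in other transcripts has 292. The 1601 bases between both splice sites are 23% of the counted length. A transcript that carries them has 1.30 times the counted bases of an otherwise equal one that lacks them, or 0.38 on the log2 scale. This value holds for exon 2 alone. Other annotated transcripts differ at their ends as well: fru-RC has another last exon in place of the counted one of 3028 bases. The transcript fru-RA lacks the first counted exon and exon 2. How far such forms weighed on the fru counts was not tested.

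The gene tra (FBgn0003741, 3L from 16590059 to 16591050) was counted over tra-RB, 862 bases in 3 exons, with the longer, non-sex-specific form of exon 2. That form holds 175 bases that female splicing removes, 20.3% of the counted length. Of its counted bases 8.59% overlap l(3)73Ah on the other strand. The gene dsx (FBgn0000504, 3R from 7924323 to 7962786) was counted over dsx-RD, 3621 bases in 5 exons. The last 2 of these, 42.9% of the length, are the distal exons of male splicing, shared by 3 of 7 annotated transcripts, and 4.67% of the counted bases overlap lds on the other strand. The remaining genes have simpler models: tra2 (FBgn0003742, 2R from 14602004 to 14604337) was counted over 1568 bases of tra2-RC, and ix (FBgn0001276, 2R from 11359437 to 11360163) over its single exon of 727 bases. Whether counting used strand is not stated, so reads of overlapping genes cannot be told apart. The file holds 1 count per gene and cell, so female and male splice forms could not be counted separately for any member.

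**Figure D1:**
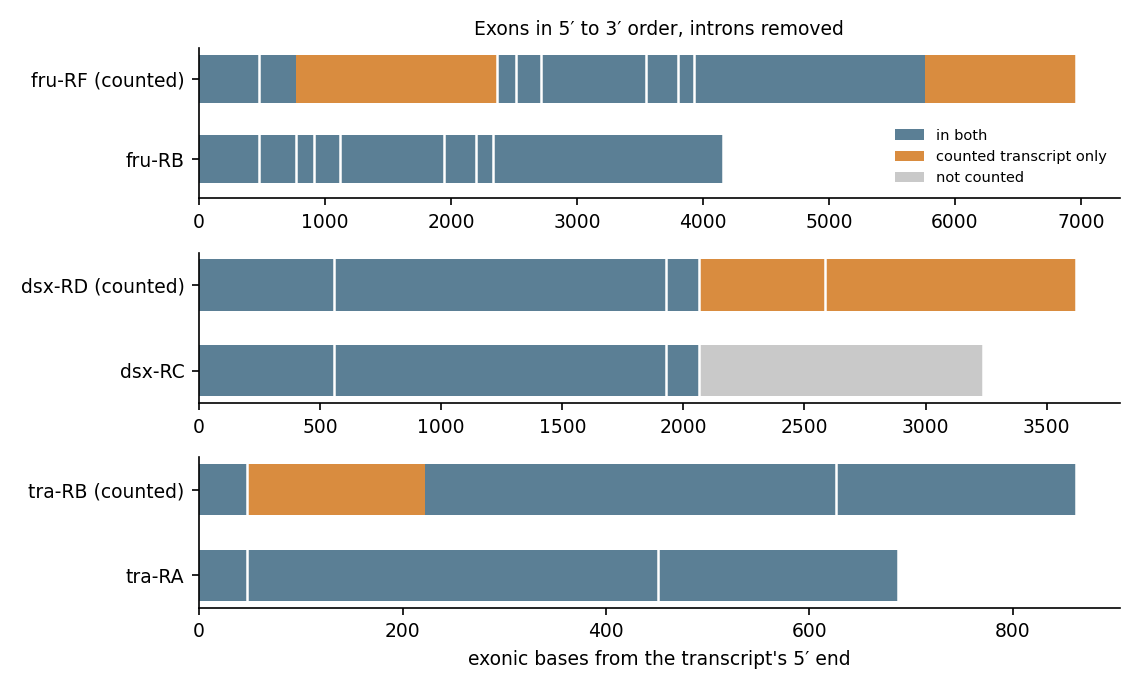
Exons of the counted transcripts of fru, dsx and tra, each above another annotated transcript of the gene, drawn to scale in exonic bases from the 5′ end with introns removed and white lines at exon borders. Blue bases are in both transcripts, orange bases only in the counted one and grey bases only in the other. The 1601 orange bases in fru-RF and the 175 in tra-RB differ between sex-specific splice forms, and the last 2 exons of dsx-RD stand where dsx-RC has its own last exon. The counted form of fru also has a longer last exon.

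Per kilobase of counted exon, averaged over the 4 groups, tra had the highest level with 39.5 CPM per kb, then fru with 33.1, tra2 with 26.1, ix with 16.9 and dsx with 0.0766. Levels of tra were 47.7 CPM per kb in mutant males, 47.2 in wild-type males, 27.1 in mutant females and 35.8 in wild-type females. The range of fru, from 8.52 CPM per kb in wild-type males to 69.7 in wild-type females, contained all group values of tra, tra2 and ix, so its place in the order changed. In both male groups the order was tra, tra2, ix and fru, and in both female groups fru, tra, tra2 and ix. The counted length of fru includes the 1601 bases that the short form of exon 2 lacks. On a length without them its values would be 1.30 times as high. In mutant males fru was at 16.3 CPM per kb and ix at 20.9, so their order there depends on the length used. The order of tra and fru in the averages over the 4 groups depends on it as well. The counted length of tra in turn includes 20.3% that female splicing removes. Group values of tra2 lay between 24.8 and 26.9 CPM per kb and those of ix between 9.99 and 24.1, so neither overlapped the range of the other. Only dsx lay below all others in every group. Set among all listed genes by level per kilobase, tra was at percentile 87, fru at 84.7, tra2 at 81.6, ix at 75.5 and dsx at 33.7.

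Reads of tra were found in 83.6% of the 189 cells, of tra2 in 82%, of fru in 81.5%, of ix in 40.7% and of dsx in 3.70%. Thus the splicing regulators and fru were read in most of these cells and dsx in few. The genes fru, tra and tra2 were read together in 23 mutant male, 27 wild-type male, 30 mutant female and 34 wild-type female cells, 114 in all. In 4 cells, 1 of each group, none of the 5 genes had a read. All 4 had under 100 CPM of Tdc2 and at least 2 glial markers at 100 CPM. Across the 189 cells the members hardly varied together: between log2(CPM + 1) values, Pearson correlations of pairs of members lay between -0.05 and 0.16 for cells that share libraries.

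**Figure D2:**
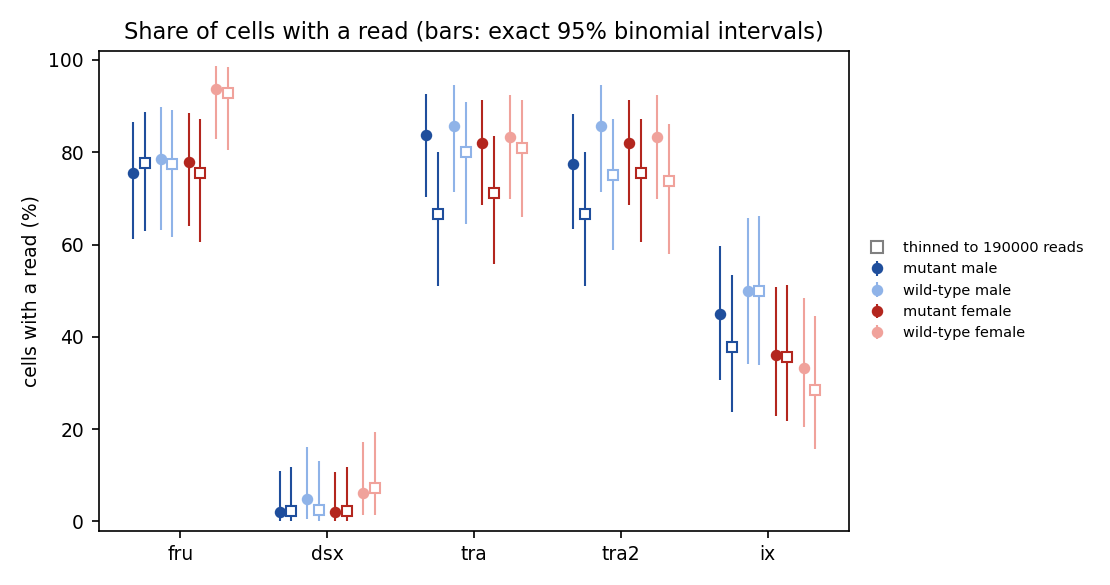
Share of cells with a read of each gene, in percent, by group, with exact 95% binomial intervals. Filled circles are cells at full depth and open squares cells thinned to 190000 reads. For fru the wild-type female share of 93.8% is the highest of the 4, and the dsx shares all lie below 10%.

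The level of fru was higher in females in the sums over all cells, though among wild-type cells of the first running numbers that had Tdc2 it was not. Summed over cells it was 113.4 CPM in mutant males (interval 110.4 to 116.4), 59.2 in wild-type males (56.9 to 61.5), 263.2 in mutant females (258.1 to 268.5) and 484 in wild-type females (478 to 490). Expressed as log2 of male over female, this was -1.21 in mutants, a 2.31-fold lower level in males, and -3.01 in wild type, 8.06-fold lower. Among the 5585 genes that averaged 20 CPM or more, 1.43% had a ratio as low in mutants and 0.0716% in wild type. For scale, a fru transcript with the 1601 bases of the long exon 2 has 1.30 times the counted bases of an otherwise equal one without them. That is 0.38 on the log2 scale. The long form belongs to female splicing, and its part in these ratios was not tested.

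The cells of both sexes overlapped widely, and the female cells reached further up. Per cell, fru ranged from 0 to 713 CPM with a median of 33.5 in mutant males, and from 0 to 377 CPM with a median of 34.2 in wild-type males. It ranged from 0 to 1558 CPM with a median of 162.7 in mutant females, and from 0 to 4327 CPM with a median of 167.9 in wild-type females. Levels of at least 100 CPM were found in 14 of 49 mutant male cells (28.6%), 10 of 42 wild-type male cells (23.8%), 32 of 50 mutant female cells (64%) and 31 of 48 wild-type female cells (64.6%). No male cell reached 1000 CPM, while 4 mutant female and 5 wild-type female cells did. When every male cell was set against every female cell, the male cell was higher in 19.6% of pairs and the female cell in 79.1% in wild type. In mutants these shares were 27.6% and 67.02%.

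**Figure D3:**
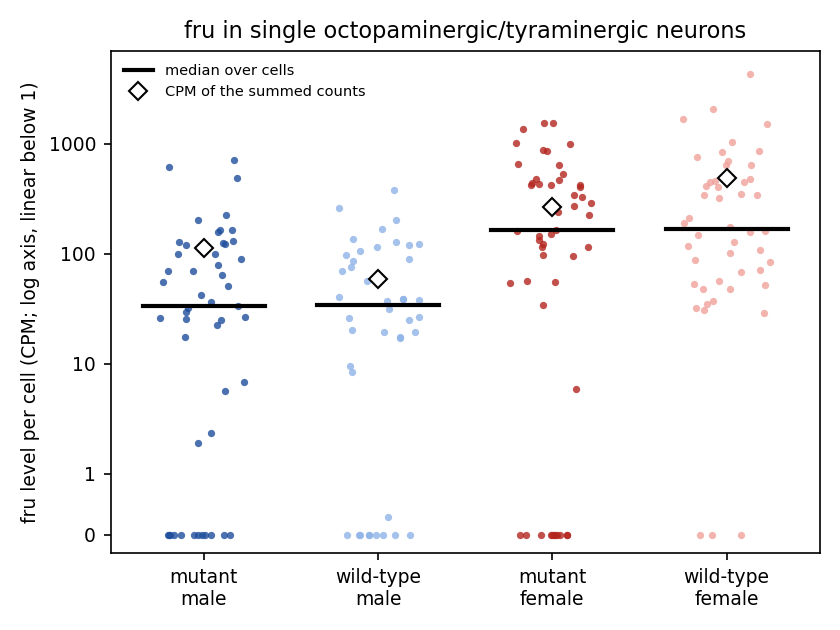
Level of fru per cell in CPM, on a log axis that is linear below 1, in the 4 groups. Each dot is 1 cell, bars are medians over cells and diamonds the CPM of the summed counts. From left to right, medians are 33.5 CPM in mutant males, 34.2 in wild-type males, 162.7 in mutant females and 167.9 in wild-type females, while the diamonds stand at 113.4, 59.2, 263.2 and 484 CPM.

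The share of cells with any fru read differed less than the level. It was 75.5% in mutant males (interval 61.1 to 86.7), 78.6% in wild-type males (63.2 to 89.7), 78% in mutant females (64.04 to 88.5) and 93.8% in wild-type females (82.8 to 98.7). In cells thinned to 190000 reads each the shares were 77.8%, 77.5%, 75.6% and 92.9% in that order, from 45, 40, 45 and 42 cells. Detection followed no order of depth: with the cells in 3 classes of 63 by total count, fru was read in 84.1% of the shallowest, 77.8% of the middle and 82.5% of the deepest class. Among cells with a read, the median level was 69.04 CPM in mutant males, 40.4 in wild-type males, 328 in mutant females and 191.6 in wild-type females.

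Between genotypes the sums of fru went opposite ways in the sexes, but the medians were close. Expressed as log2 of mutant over wild type the sums gave 0.93 in males and -0.88 in females, both short of 2-fold. The medians per cell gave -0.03 in males and -0.05 in females. The sums rested on few cells: 3 mutant male cells held most of that group's fru counts, and 6 cells did so in wild-type males, 7 in mutant females and 3 in wild-type females. The cell with the most reads alone held 25.6% of the mutant male counts, 10.4% of the wild-type male counts, 10.7% of the mutant female counts and 24.4% of the wild-type female counts. Without these top cells the levels were 88.5 CPM in mutant males, against 55.99 in wild-type males, and 245.96 CPM in mutant females, against 388 in wild-type females, with log2 ratios of 0.65 and -0.66. Set cell against cell, the mutant cell was the higher in 48.98% of male pairs and the wild-type cell in 45.8%. In females the mutant cell was the higher in 45.9% of pairs and the wild-type cell in 52.7%.

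The wild-type female cell with the highest fru level, 4327 CPM, also had 164.2 CPM of roX1. Without the 3 female cells with at least 100 CPM of roX1, fru was at 260.9 CPM in mutant females, against 394 in wild-type females, and the ratio of male to female in wild type was -2.71. With all cells of nearly identical pairs removed, which left 38 mutant and 28 wild-type cells in males, the ratio of mutant to wild type there was 0.60.

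Within stretches of running numbers, the direction between sexes depended on the cells kept. The first stretch alone held more than 1 cell of each sex. Among wild-type cells of the first 96 numbers, the 20 male cells had 96.1 CPM with a median of 72.9, and the 8 female cells had 242.8 CPM with a median of 82.1. The ratio of male to female was there -1.33. Most of the female counts lay in 2 cells, at 1026 and 753 CPM, with under 1 CPM of Tdc2 and with 7 and 4 of the glial markers at 100 CPM. Another of the 8 female cells, at 116.8 CPM of fru, was the one with 7042 CPM of roX1. It had 77.7 CPM of Tdc2 and 5 glial markers at 100 CPM, so the following settings left it out. With at least 100 CPM of Tdc2 required, the 20 male cells had 96.1 CPM, against 79.4 CPM with a median of 42.3 in 4 female cells, a ratio of 0.27 in the other direction. With fewer than 2 glial markers required, 10 male cells had 86.9 CPM and the same 4 female cells 79.4, a ratio of 0.13. The second stretch held 1 wild-type female cell, at 174.3 CPM. No stretch held mutant cells of both sexes, so in mutants sex and stretch cannot be told apart. In the first stretch the 28 mutant male cells had 116.04 CPM, a log2 ratio of 0.27 over the wild-type male cells. In the second stretch 21 mutant male cells had 109.8 CPM and 22 wild-type male cells 27.8 CPM, a ratio of 1.94. In the last stretch mutant female cells had 263.2 CPM and 39 wild-type female cells 578 CPM, a ratio of -1.13.

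By neuron subset, and over all running numbers, fru was also lower in males in the cells with both Tdc2 and Tbh at 100 CPM or more, the profile of octopaminergic neurons. In these it was at 116.6 CPM in 41 mutant male cells, 55.6 in 34 wild-type male cells, 252.7 in 46 mutant female cells and 512 in 40 wild-type female cells. Log2 ratios of male to female were -1.11 in mutants and -3.18 in wild type. Cells with Tdc2 but under 100 CPM of Tbh, the profile of tyraminergic neurons, were only 3, 4, 3 and 4 in these groups. All 14 had a fru read, at 54.1 CPM in mutant males, 88.9 in wild-type males, 433 in mutant females and 160.98 in wild-type females. In mutant females 1 of the 3 cells held 85.98% of those counts. The 14 cells with little Tdc2 had a fru read in 9.

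Cells with at least 100 CPM of VGlut, the vesicular glutamate transporter, had a fru read in 150 of 176 cases (85.2%). The 13 cells with less VGlut had one in 4 (30.8%), and 7 of these 13 were mutant female and 4 wild-type female cells. In mutant females fru was read in 38 of 43 cells with VGlut and in 1 of 7 with little, at 295 and 33.4 CPM. In wild-type females it was read in 43 of 44 and in 2 of 4. The median depth of the 13 cells was 711366 counts, against 894282 in the 176. Some of the 13 also had little Tdc2 and at least 2 glial markers at 100 CPM. They came from mutant females, wild-type females and wild-type males and were not taken out. A link between VGlut and fru among octopaminergic neurons was not tested.

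Glial RNA moved with sex, since cells with at least 2 of 7 glial markers were more numerous among males, and its part in the fru ratios was not tested beyond the following values. In the cells with fewer markers fru was at 135.75 CPM in mutant males, 47.3 in wild-type males, 247.05 in mutant females and 503 in wild-type females. The ratio of male to female was then -0.86 in mutants, no longer past 2-fold, and -3.39 in wild type. In the cells with 2 or more markers it was at 39.8 CPM in 18 mutant male cells, 91.3 in 16 wild-type male cells, 431 in 9 mutant female cells and 412 in 9 wild-type female cells. The summed CPM of the 7 markers had a median per cell of 217.4 in mutant males, 184.6 in wild-type males, 108.7 in mutant females and 118.1 in wild-type females. Single cells held 0 in each group at the lowest and, at the highest, from 59444 in mutant females to 110984 in mutant males.

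Reads of dsx were near the limit of detection. They were found in 1 of 49 mutant male, 2 of 42 wild-type male, 1 of 50 mutant female and 3 of 48 wild-type female cells. The summed counts were 11.5 in mutant males, 2 in wild-type males, 3 in mutant females and 37 in wild-type females. As CPM these were 0.234 (interval 0.13 to 0.43), 0.0445 (0.01 to 0.16), 0.0791 (0.02 to 0.23) and 0.749 (0.53 to 1.03). A single wild-type female cell with 33 reads held 89.2% of that group's counts, and no fold is given since wild-type males and mutant females were at or below 3 counts. The mutant female cell and 1 wild-type female cell with 3 reads each were the nearly identical pair that joins these groups. All 7 cells with a dsx read also had a fru read, at 36.9 to 453 CPM of fru, where 81.5% of all cells had one. Of the 7, 4 had at least 2 glial markers at 100 CPM.

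The splicing factor gene tra2 varied least between groups. It had 41.6 CPM in mutant males (interval 39.9 to 43.5), 38.6 in wild-type males (36.8 to 40.5), 40.4 in mutant females (38.4 to 42.5) and 41.9 in wild-type females (40.1 to 43.8). Medians per cell were 32.5, 34.1, 33.02 and 29.3 CPM in that order. Log2 ratios were 0.11 and -0.05 for mutant over wild type in males and females, and 0.04 and -0.11 for male over female in mutants and wild type. Reads were found in 77.6%, 85.7%, 82% and 83.3% of cells, and in thinned cells in 66.7%, 75%, 75.6% and 73.8%.

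Counts of tra, whose protein is active only in females, were somewhat higher in males. It had 40.9 CPM in mutant males, 40.5 in wild-type males, 23.3 in mutant females and 30.7 in wild-type females. The median per cell was 23.5 CPM in mutant males, 31.4 in wild-type males, 16.7 in mutant females and 17.1 in wild-type females, and cells of all groups overlapped. Log2 ratios of male to female were 0.79 in mutants and 0.39 in wild type. For scale, a transcript with the 175 bases of the non-sex-specific form has 1.25 times the counted bases of one without them, or 0.33 on the log2 scale. Those of mutant to wild type were 0.02 in males and -0.38 in females.

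A few cells and stretches weighed on the tra values. The highest levels, 1452 and 1014 CPM with 368 and 130 reads, were in mutant male cells of numbers 21 and 27, while the highest was 201.5 CPM in wild-type males, 81.2 in mutant females and 131.2 in wild-type females. Both cells had at least 2 glial markers, and without the first of them mutant males had 33.6 CPM. Without cells that had 2 or more glial markers tra was at 29.2 CPM in mutant males, 42.7 in wild-type males, 23.7 in mutant females and 30.3 in wild-type females. With cells numbered above 96 alone, the ratio of male to female in mutants was -0.64, the opposite sign, and as the mean of per-cell CPM it was 1.86. The share of cells with a tra read was 83.7% in mutant males, 85.7% in wild-type males, 82% in mutant females and 83.3% in wild-type females. By class of depth it was 74.6% in the shallowest, 82.5% in the middle and 93.7% in the deepest class.

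The coactivator gene ix was low and somewhat higher in males. It had 15.1 CPM in mutant males (interval 14.1 to 16.3), 17.5 in wild-type males (16.3 to 18.7), 9.12 in mutant females (8.19 to 10.1) and 7.23 in wild-type females (6.50 to 8.02). The median cell had no read in 3 groups and 0.39 CPM in wild-type males. Reads were found in 44.9% of mutant male cells, 50% of wild-type male cells, 36% of mutant female cells and 33.3% of wild-type female cells, and in thinned cells in 37.8%, 50%, 35.6% and 28.6%. The highest cells had 107.9, 83.5, 50.3 and 129.9 CPM in that order, and the groups overlapped. Log2 ratios of male to female were 0.67 in mutants and 1.17 in wild type, and those of mutant to wild type -0.19 in males and 0.30 in females. No alternative tried turned the ratios of male to female below 0, but on medians of per-cell CPM they were 0.00 in mutants and 0.48 in wild type.

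**Figure D4:**
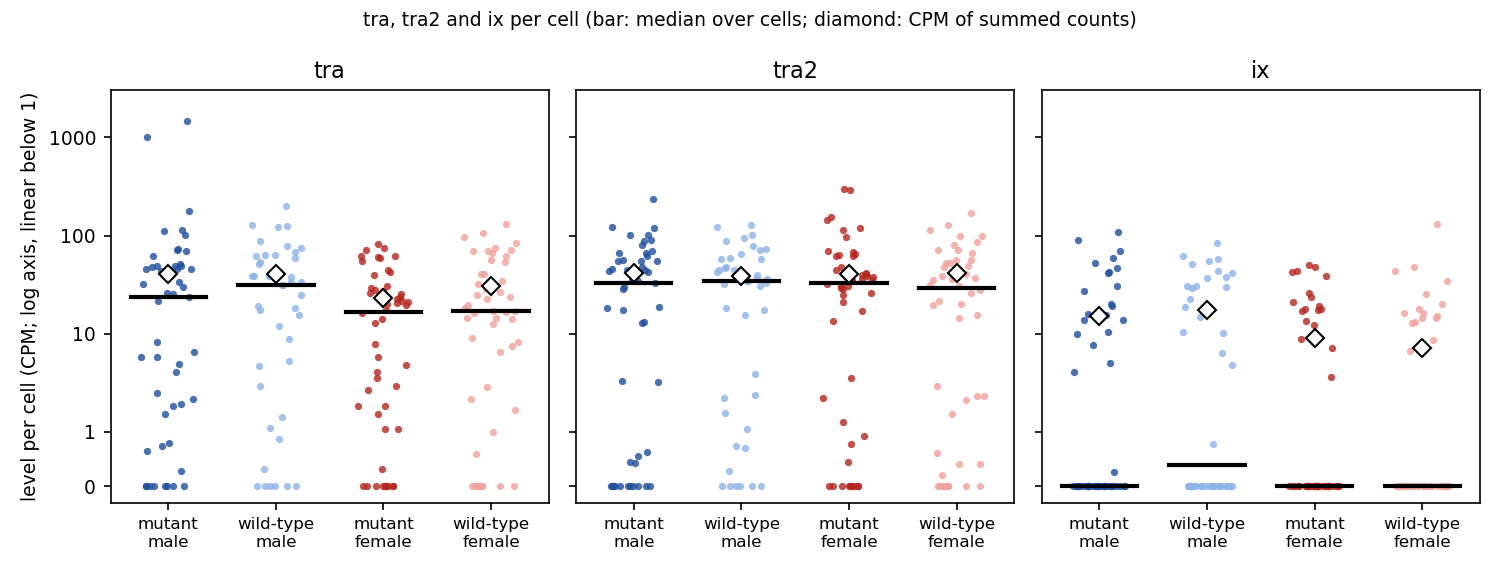
Level of tra, tra2 and ix per cell in CPM, on a log axis that is linear below 1, for the same groups from left to right. Bars are medians over cells and diamonds the CPM of summed counts. The cells of all groups overlap for each gene, and 2 mutant male cells stand above 1000 CPM of tra.

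Read against all genes, and over all cells, fru was the member with a 2-fold difference between the sexes in both genotypes. A difference of at least 2-fold was shown by 1 of the 5 members (fru, lower in males) in mutants, where 7.2% of genes averaging 20 CPM or more and 15.7% of those averaging 1 CPM or more did so. In wild type it was 2 of 5 members (fru, lower in males, and ix, higher), against 7.79% and 16% of genes. The gene fru was among the 33 genes (0.591%) that were lower by 2-fold in males of both genotypes. Both these ratios share the male pairs that join genotypes. In cells with fewer than 2 glial markers the mutant ratio of fru was -0.86, short of 2-fold. In mutants sex and running number cannot be told apart. The long exon 2 of female splicing, 0.38 in log2 of counted bases, was not taken out of the fru ratios. For mutant over wild type, 0 of 5 members were past 2-fold in males, where 2.42% and 9.31% of genes were, and 0 in females, where 4.64% and 12% were. The mean of ix was 12.2 CPM, so that only the lower minimum applied to it, and dsx fell below both.

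**Figure D5:**
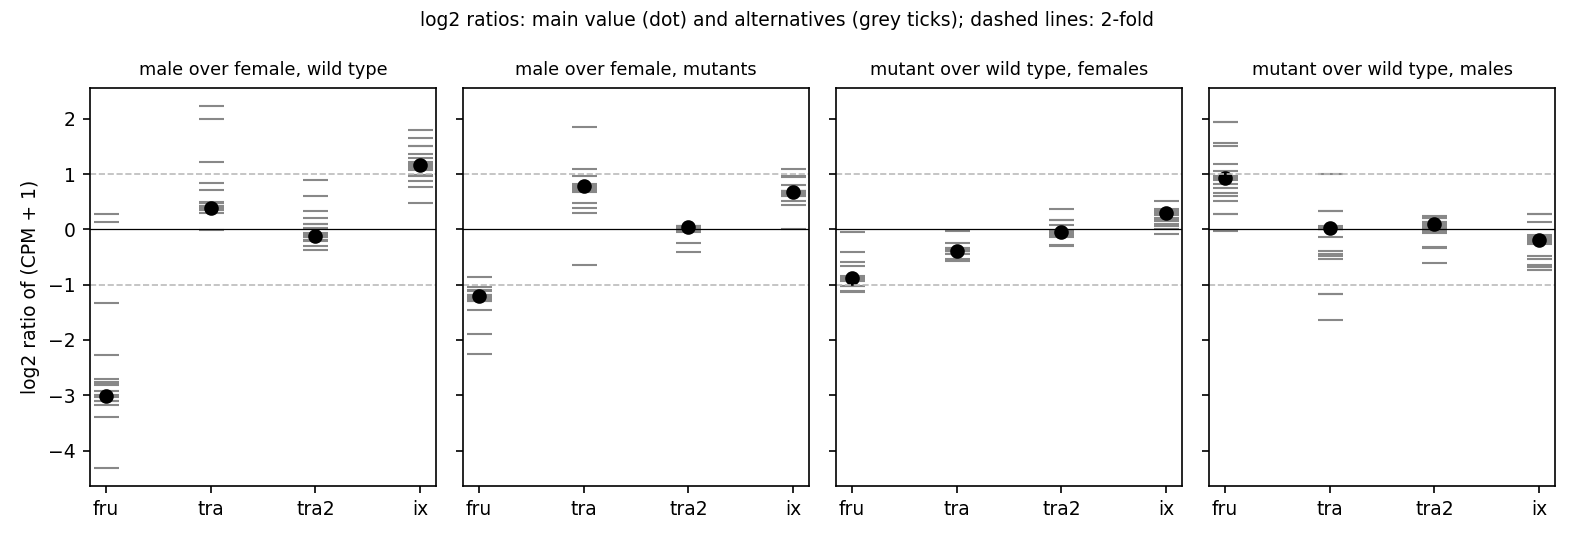
Log2 ratios of (CPM + 1) for fru, tra, tra2 and ix, male over female in wild type and in mutants and mutant over wild type in females and in males. Black dots are the reported values, grey ticks the values under each alternative, and dashed lines mark 2-fold. For male over female in wild type, 17 of 19 alternatives put fru below 0 and 2, both among the first running numbers, above it, while its values for mutant over wild type reach to about 0 in both sexes.

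Among 39 other genes of the pathway, 38 were listed and 24 averaged 20 CPM or more. For mutant over wild type 0 of the 24 were past 2-fold in either sex, beside 2.42% of all genes at that level in males and 4.64% in females. Medians were 0.07 in males and -0.06 in females, beside 0.01 and 0.00 over all genes. For male over female 1 was higher and 1 lower in mutants (median 0.13, beside 0.02 over all genes), where 7.2% of all genes were past 2-fold either way. In wild type 1 was higher and 2 lower (median -0.23, beside 0.01), where 7.79% were. With 24 genes these counts are too few to be set apart from the shares over all genes. Sxl, the switch gene upstream of tra, had 87.3 CPM in mutant males, 105.6 in wild-type males, 359 in mutant females and 368 in wild-type females, with ratios of male to female of -2.03 and -1.79. SPR, the receptor for the seminal sex peptide, had 28.2 CPM in mutant males, 27.5 in wild-type males, 13.6 in mutant females and 11.8 in wild-type females, with ratios of 1.0 and 1.16. The axon guidance receptor gene robo1, described as a target of FruM, was at -0.68 in mutants, short of 2-fold, and at -1.14 in wild type. The 7 partner genes of Fru, Dsx or Ix with 20 CPM lay between -0.97 and 0.73 in both genotypes, none past 2-fold.

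The genes whose log2(CPM + 1) values followed each member most closely over the 189 cells are given as a description, since cells share libraries, depth and sex. For fru they were Frq2 (r = 0.46), a neuronal calcium sensor gene with a near-identical copy, nAChRalpha1 (0.42), a nicotinic acetylcholine receptor subunit, and CG46244 (0.42). Within male cells these correlations were 0.36, 0.32 and 0.33, and within female cells 0.57, 0.55 and 0.48. The correlation of fru with Sxl was 0.38 over all cells, but 0.35 in mutant males, 0.25 in wild-type males, 0.13 in mutant females and 0.30 in wild-type females. For tra they were CG14073 (0.37), the bHLH factor gene da (0.37) and tou (0.36), for tra2 CG2186 (0.46), CG10465 (0.43) and the kinase cofactor gene Mob2 (0.42), and for ix Dpck (0.35), CG11127 (0.35) and CG7265 (0.33).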

How the data were processed

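The deposited values are expected counts per gene and cell. Per the file headers, HOMER summed the reads on the exons of 1 transcript per gene on dm6, not normalized, and the values come in steps of 0.5. Of the deposited counts above 0, 56.2% were whole, and plans had assumed whole counts. The source of the fractions is not stated. FastQC, HOMER and edgeR are named in the submitters' processing notes; the aligner is not given in the sources used here. Cells with under 10000 counts or 500 genes were left out (13 columns), and columns correlated at 0.95 or more over 7500 genes within a group were averaged. Counts were summed over a group's cells and scaled to the total over listed genes (CPM). Ratios were log2 of (CPM + 1), which understates changes of low genes. With 1 sample a group no test was run. Intervals are exact Poisson for sums and Clopper-Pearson for shares, at 95%, and amplified reads are not independent molecules. Cells were thinned to 190000 reads to compare shares, leaving out shallower cells. Alternatives changed the cell filter, pairs, pseudocount, scaling, top cells, marker levels, title letter and running numbers. Members and lists were chosen with earlier results of these data known. Named were the 5 members, the 3 genes most like each member read in 20 cells, and roX1, Sxl and nvy. Also named were pathway genes averaging 20 CPM or more and past 2-fold in 1 direction in both sexes or genotypes. The gene robo1 was named after its values were seen. Accessions of 16952 of 17104 rows matched the RefSeq table, and transcript models came from Ensembl release 115. No doublet caller was run. The sums were tested on simulated data. Python 3.11.15, numpy 2.4.6, pandas 2.3.3, scipy 1.17.1 and matplotlib 3.10.9 were used.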

Additional observations from a re-analysis of the deposited data

Results flagged for a closer look

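As log2 of mutant over wild type, the values lay on opposite sides of 0 in the sexes for fru, at 0.93 in males and -0.88 in females. The difference between both ratios, female minus male, was -1.80, and 1.67% of genes averaging 20 CPM or more were as far from 0 in it. The difference was not tested, and on medians of per-cell CPM the ratios were -0.03 in males and -0.05 in females. For ix the ratio was -0.19 in males and 0.30 in females, which was not tested either. Other settings put ix on the other side of 0, with up to 0.28 in males among cells numbered above 96 and down to -0.08 in females with the mean of per-cell CPM.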

How the results depend on the processing

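The fru ratio of male to female stayed below 0 under all 16 alternatives in mutants, past 2-fold in 15 of them, and under 17 of 19 in wild type, past 2-fold in those 17. The other two turned it above 0 in wild type: among the first 96 running numbers it was 0.27 where Tdc2 reached 100 CPM and 0.13 in cells with fewer than 2 glial markers, from 4 female cells in both. In the order of mutants and wild type it was -1.30 and -2.78 without cells of nearly identical pairs, -1.04 and -3.09 with all columns as separate cells, -1.89 and -2.81 as mean and -2.24 and -2.26 as median of per-cell CPM, -1.46 and -2.77 without top cells, -1.29 and -3.11 with size factors, -1.11 and -3.18 in cells with Tdc2 and Tbh, -1.10 and -2.77 in cells with the title letter B, and -0.86 and -3.39 in cells with fewer than 2 glial markers. In wild type alone it was -2.93 with a pseudocount of 5, -2.71 without females high in roX1, -1.33 for the first 96 running numbers and -4.31 for those above. The fru ratio of mutant to wild type was less stable. In the order of males and females it was 0.51 and -0.41 as mean and -0.028 and -0.046 as median of per-cell CPM, 0.65 and -0.66 without top cells, 1.05 and -1.02 with Tdc2 and Tbh, 0.74 and -0.93 with the letter B, 1.5 and -1.02 with fewer than 2 glial markers, and 1.94 and -1.11 above running number 96. In males alone it was 0.60 without pairs, 1.17 with separate columns, 0.27 for the first 96 numbers, also with Tdc2 required, 0.83 there with fewer than 2 glial markers, 1.94 for the second stretch of 96 and 1.55 there without pairs. In females alone it was -0.59 without those high in roX1 and -1.13 for the last stretch. The cause of these shifts was not tested. With minimums of 1 CPM, 100 CPM and none, the share of genes past 2-fold was 15.7%, 3.49% and 11.4% for male over female in mutants, 16%, 2.91% and 11.9% in wild type, 9.31%, 0.74% and 7.70% for mutant over wild type in males, and 12.0%, 1.69% and 8.69% in females. The tra ratio of male to female lay between -0.64 and 1.86 in mutants and between -0.02 and 2.24 in wild type, that of tra2 between -0.41 and 0.06 and between -0.38 and 0.89, so neither kept 1 direction under the alternatives. Shares of cells with a fru read moved by less than their counting interval under every alternative tried. The median, the glial and the separate running number settings were added after the data were seen. No paired analysis was possible because the labels tie no cell of 1 group to a cell of another and no test was run.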
